A study of Mus musculus with 2 samples.

Results

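The genes described here are Dll1, Notch1, Hes1, Hes5, Neurog2, Sox2, Nr2e1 and Rax, a set that marks retinal progenitors and the Notch pathway during development. They were taken by gene symbol, and all 8 were found among the 32227 genes of the deposited gene table. The question was whether their expression was retained in the retina at postnatal day 21 (P21), when retinal neurons and glia have been born. The data are 2 single-nucleus RNA-seq libraries of whole mouse retina of strain C57 BL/6J, 1 labelled Cre- with the genotype WT and 1 labelled Tet tcKO. In Tet tcKO animals, floxed Tet1, Tet2 and Tet3, which encode the enzymes that oxidise 5-methylcytosine, were recombined by the Chx10-Cre-GFP transgene in retinal progenitors. The transgene can be mosaic, and by the study's methods Cre+ parents were crossed with each other to limit this, Cre- controls were bred from Cre- parents, and retinas of several animals were pooled in 2 dissociations per genotype, which the files do not tell apart. Each genotype thus counts as 1 sample, the values below have no replicate check, and all intervals cover counting error only.

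Unique molecular identifiers (UMIs), each standing for 1 captured transcript, totalled 11510585 over the 7357 nuclei of Cre-, with a median of 1107. They totalled 16590747 over the 6766 nuclei of Tet tcKO, with a median of 1836.5. The libraries shared 1 cell barcode. Mitochondrial genes took 5.47% of the UMIs of Cre- and 1.76% of Tet tcKO. Rod-annotated nuclei numbered 5214 in Cre- and 6 in Tet tcKO, and cone-annotated nuclei 265 and 3225. Both were therefore pooled as photoreceptors for comparisons between libraries. The photoreceptor ratios below thus set mostly rod-annotated nuclei of Cre- against cone-annotated nuclei of Tet tcKO. In these ratios the genotype and the rod or cone annotation cannot be told apart. In 2 of the 24 photoreceptor clusters, numbers 32 and 40 with 858 Cre- nuclei in all, ganglion cell markers outnumbered photoreceptor markers among the 10 leading genes in 1 of 2 rankings. Of the 265 Cre- nuclei annotated as cones, 264 lay in cluster 11, which was deep, with a median of 3744.5 UMIs. Its 10 leading genes held no photoreceptor marker and included Ly6c1, Sox17, Robo4 and Adgrl4, which are known from endothelium and were named after their values were seen. The 12 cone markers summed to 2306 CPM (a gene's UMIs divided by all UMIs of the nuclei counted, times 1000000) in cluster 11 and 2080 CPM in Cre- rods, against 7392 CPM in Tet tcKO cones. The 10 rod markers summed to 15438 CPM in cluster 11 and 12149 CPM in Cre- rods, against 6829 CPM in Tet tcKO cones. The 7 endothelial markers summed to 316 CPM in cluster 11 and 243 CPM in Cre- rods, and their part in the members' levels was not tested. These Cre- nuclei are therefore called cluster 11 and not ranked as cones. Values without clusters 32 and 40, and without cluster 11, are given beside the results. Every cluster annotated as amacrine, horizontal or retinal ganglion cells (RGCs) passed the same check. Some bipolar and Müller clusters did not, and these 2 classes carry the authors' names here as annotations. A cluster passed unless another class had more markers among its leading genes, so 0 against 0 passed. Amacrine clusters 12, 23 and 27 and RGC cluster 15 held 0 markers of their own class in both rankings. Photoreceptor clusters such as 9 and 10 held none either. The pass therefore does not establish these class names, which are the authors' annotation.

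In the developing retina, Delta and Jagged ligands on 1 cell bind Notch receptors on its neighbour. Cleavage then frees the receptor's intracellular part, which joins RBPJ in the nucleus and turns on repressors of the Hes and Hey families. These repressors hold back proneural factors such as Neurog2, and cells with low Notch activity leave the cycle as neurons. Müller glia, the last-born cells of the retina, are known to keep many progenitor genes for life, among them Hes1, Sox2, Nr2e1 and Rax. Expression of these genes in a mature retina is therefore not by itself a mark of progenitors.

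On the mouse assembly GRCm39, Dll1 (ENSMUSG00000014773) lies on the minus strand at chr17:15587276-15597134, Notch1 (ENSMUSG00000026923) on the minus strand at chr2:26347915-26406675, Hes1 (ENSMUSG00000022528) on the plus strand at chr16:29882134-29886643 and Hes5 (ENSMUSG00000048001) on the plus strand at chr4:155045373-155046828. Neurog2 (ENSMUSG00000027967) lies at chr3:127426448-127429280 and Sox2 (ENSMUSG00000074637) at chr3:34704554-34706610, both on the plus strand, Nr2e1 (ENSMUSG00000019803) at chr10:42437940-42459660 and Rax (ENSMUSG00000024518) at chr18:66061348-66072858, both on the minus strand. All are protein-coding. Some share bases with another annotated gene, and since no source used here says whether counting used strand, reads of partners could be mixed. Sox2 lies inside the lncRNA Sox2ot on the same strand, whose level was 64.6 CPM in Cre- against 69.2 in Tet tcKO. Dll1 overlaps Fam120b on the other strand, which measured 51.2 CPM in Cre- against 78.2 CPM in Tet tcKO. Notch1 overlaps the antisense RNA 0610009E02Rik, at 7.04 and 8.62 CPM, and Rax overlaps Raxos1, at 2.17 and 2.35 CPM.

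Dll1 encodes Delta-like 1, a ligand that a differentiating cell presents to its neighbours. Over all nuclei it gave 84 UMIs in Cre-, or 7.30 CPM (95% interval 5.82 to 9.03), and 527 UMIs in Tet tcKO, or 31.8 CPM (29.1 to 34.6). The log2 ratio, Tet tcKO over Cre-, was 2.12 (1.79 to 2.47). In photoreceptors the level was 8.18 CPM in Cre- (6.27 to 10.5) and 51.8 CPM in Tet tcKO (46.8 to 57.3), with a log2 ratio of 2.66 (2.27 to 3.07), or 2.57 without clusters 32 and 40 and 2.62 without cluster 11. The intervals of the libraries did not overlap. In Cre- nuclei Dll1 was highest in Müller-annotated nuclei, at 31.5 CPM (12.7 to 64.9) from 7 UMIs, and its interval lay above that of rods at 8.40 CPM (6.33 to 10.9). In Tet tcKO cone-annotated nuclei came first at 51.9 CPM, with an interval that overlapped that of Müller-annotated nuclei at 26.8 CPM (7.30 to 68.6). Bipolar-annotated nuclei of Tet tcKO followed at 24.3 CPM, and amacrine and RGC nuclei were lower, at 7.26 and 6.56 CPM. Hes1, Hes5, Sox2, Notch1, Nr2e1 and Rax had Müller-annotated nuclei first in Tet tcKO. Only for Hes1 and Notch1 did that interval lie above the next class, and for Hes5, Sox2, Nr2e1 and Rax it overlapped.

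Notch1, the receptor that Dll1 binds, gave 186 UMIs or 16.2 CPM over all Cre- nuclei and 728 UMIs or 43.9 CPM over all Tet tcKO nuclei, with a log2 ratio of 1.44 (1.21 to 1.68), or 2.04 with nuclei thinned to 500 UMIs. In photoreceptors it measured 16.1 CPM in Cre- against 60.9 CPM in Tet tcKO, with a log2 ratio of 1.92 (1.63 to 2.22), or 1.89 without clusters 32 and 40 and 2.04 without cluster 11. Unlike Dll1, it was highest in Müller-annotated nuclei of both libraries. Those nuclei measured 104 CPM in Cre- (65.6 to 155) against 228 CPM in Tet tcKO (158 to 318). The interval lay above that of rods in Cre-, at 14.8 CPM (12.02 to 18.1), and above that of cones in Tet tcKO, at 60.9 CPM (55.4 to 66.8). In RGC nuclei, 5 UMIs in Cre- against 26 in Tet tcKO gave a log2 ratio of 1.58 (0.18 to 3.32). Most RGC nuclei of the libraries lay in different clusters, with 394 Cre- and 29 Tet tcKO nuclei in cluster 8, 58 and 273 in cluster 31, and 4 and 217 in cluster 15. All 5 Cre- UMIs lay in cluster 8, and in cluster 2, with 111 and 185 nuclei, Notch1 had 0 and 12 UMIs. The part of this cluster make-up in the RGC ratios was not tested. In amacrine nuclei 7 and 22 UMIs gave -0.42 (-1.69 to 1.05), so a difference there was not detectable at this depth.

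**Figure D1:**
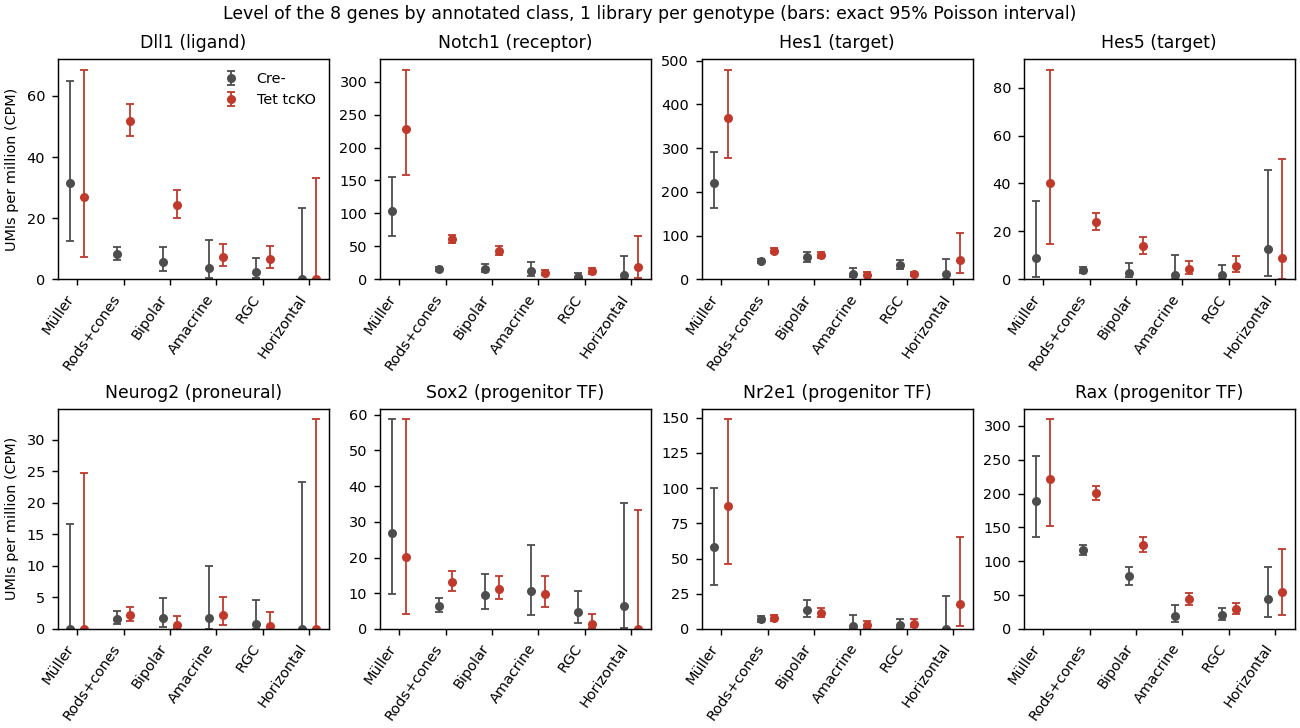
Level of each of the 8 genes in CPM (vertical axis, starting at 0, scaled per gene) in annotated classes (horizontal axis), for Cre- (grey) and Tet tcKO (red), with exact 95% Poisson intervals as bars. Hes1 and Notch1 are highest in Müller-annotated nuclei of both libraries, and Dll1 stands at 51.8 CPM in Tet tcKO photoreceptors against 8.18 CPM in Cre-.

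Hes1 and Hes5 encode repressors of the basic helix-loop-helix class that active Notch switches on. The 250 bases before the start site of each canonical transcript were read from GRCm39, since the pair are the direct readouts of the pathway among the 8 genes. Hes1 is shown at chr16:29883877-29884126 and Hes5 at chr4:155045123-155045372, both on the plus strand, and the capitals mark TGGGAA, the core that RBPJ binds, or its reverse complement TTCCCA.
Hes1: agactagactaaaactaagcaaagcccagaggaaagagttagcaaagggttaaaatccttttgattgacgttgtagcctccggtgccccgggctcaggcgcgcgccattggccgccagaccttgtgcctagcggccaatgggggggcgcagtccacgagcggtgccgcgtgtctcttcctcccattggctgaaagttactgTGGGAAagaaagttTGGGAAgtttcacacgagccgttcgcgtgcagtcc
Hes5: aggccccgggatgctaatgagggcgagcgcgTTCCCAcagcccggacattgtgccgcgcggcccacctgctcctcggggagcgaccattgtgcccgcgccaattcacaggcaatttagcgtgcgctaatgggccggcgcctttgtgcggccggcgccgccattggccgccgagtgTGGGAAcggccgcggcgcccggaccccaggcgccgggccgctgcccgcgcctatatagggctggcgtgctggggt
Hes1 held 2 matches on the plus strand, whose first bases lay 49 and 35 bases before the start. Hes5 held 1 match on the minus strand at 219 bases and 1 on the plus strand at 75 bases before the start. Of the other members, Nr2e1 held 1 match and Dll1, Notch1, Sox2, Neurog2 and Rax held none in windows of the same length. A match of either strand occurred in 22.7% of the 21770 such windows of protein-coding genes. The Hes5 window held 33 CpG sites and the Hes1 window 17, against a median of 8 over all windows. These matches describe the sequence and were not tied to binding or methylation here.

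Hes5 was barely measured in Cre-, with 40 UMIs or 3.48 CPM over all nuclei, and gave 268 UMIs or 16.2 CPM in Tet tcKO. Its log2 ratio was 2.22 (1.73 to 2.73) over all nuclei. In photoreceptors 28 UMIs in Cre- against 178 in Tet tcKO gave 3.70 and 24.0 CPM, with a log2 ratio of 2.70 (2.12 to 3.33). Without clusters 32 and 40 this ratio was 2.62, without cluster 11 it was 2.54, and with nuclei thinned to 500 UMIs 1.91. In Tet tcKO the levels of Müller-annotated nuclei, 40.2 CPM from 6 UMIs, and of cones, 24.0 CPM, did not differ beyond their intervals. Bipolar-annotated nuclei stood below cones, at 13.7 CPM (10.5 to 17.6). In Cre- no class stood apart, since all 7 intervals overlapped their neighbours in the order.

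Hes1 was spread more evenly between the libraries. It gave 505 UMIs or 43.9 CPM in Cre- against 843 UMIs or 50.8 CPM in Tet tcKO, with a log2 ratio of 0.21 (0.05 to 0.37), or 0.018 with nuclei thinned to 500 UMIs. Müller-annotated nuclei had the highest level, 221 CPM in Cre- (163 to 292) against 369 CPM in Tet tcKO (278 to 480). Both intervals lay above those of the photoreceptors beside them, rods in Cre- at 40.2 CPM (35.5 to 45.3) and cones in Tet tcKO at 65.7 CPM (59.9 to 71.8). Cluster 11 of Cre- measured 52.4 CPM. In photoreceptors the log2 ratio was 0.65 (0.44 to 0.86), or 0.63 without clusters 32 and 40 and 0.71 without cluster 11. In RGC nuclei the direction was the other way, with 41 UMIs or 33.3 CPM in Cre- against 24 UMIs or 11.3 CPM in Tet tcKO, with a log2 ratio of -1.57 (-2.36 to -0.81). This ratio compares different clusters for most nuclei. In cluster 8 Hes1 measured 41.9 CPM in Cre- (27.6 to 60.9, 27 UMIs) against 57.8 CPM in Tet tcKO (11.9 to 169, 3 UMIs), so the direction there was not that of the class and the intervals overlapped. In cluster 2 it measured 26.7 CPM (14.2 to 45.7) against 12.4 CPM (5.96 to 22.9), with overlapping intervals. Cluster 31 had 0 Hes1 UMIs in Cre- and 3 in Tet tcKO, and cluster 15 had 8 in Tet tcKO. The 15 Müller markers summed also differed there, at 575 CPM in Cre- against 431 CPM in Tet tcKO, and the part of this in the Hes1 difference was not tested. Scaling by TMM or by median of ratios left the sign of the photoreceptor and RGC class ratios as given.

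Among the transcription factors of progenitors, Rax, a homeobox gene of the eye field, gave 1106 UMIs or 96.1 CPM in Cre- against 2243 UMIs or 135 CPM in Tet tcKO, with a log2 ratio of 0.49 (0.39 to 0.60). In Cre- its level in Müller-annotated nuclei, 189 CPM (136 to 256), lay above that of rods, 115 CPM (107 to 123), and cluster 11 measured 127 CPM. In Tet tcKO the level in Müller-annotated nuclei, 221 CPM, overlapped that of cones, 200.5 CPM. In photoreceptors it measured 117 CPM in Cre- against 200.4 CPM in Tet tcKO, with a log2 ratio of 0.78 (0.66 to 0.90), or 0.75 without clusters 32 and 40 and 0.80 without cluster 11. In amacrine nuclei 11 and 103 UMIs gave 19.7 and 44.0 CPM, with a log2 ratio of 1.16 (0.26 to 2.21). Most amacrine nuclei of the libraries lay in different clusters, with 256 Cre- and 21 Tet tcKO nuclei in cluster 27 but 14 and 357 in cluster 12. In cluster 13, with 72 and 122 nuclei, Rax measured 43.0 CPM in Cre- (13.97 to 100.4) against 42.6 CPM in Tet tcKO (21.3 to 76.3). Cluster 27 had 4 and 1 UMIs, or 13.3 CPM (3.63 to 34.1) in Cre- and 36.2 CPM (0.92 to 202) in Tet tcKO. Cluster 23, with 26 and 222 nuclei, had 1 and 38, or 31.9 CPM (0.81 to 178) and 73.0 CPM (51.7 to 100.2). Cluster 24, with 35 and 321 nuclei, had 0 and 17, or 0 CPM (0 to 62.2) and 36.2 CPM (21.1 to 57.9). The intervals overlapped in each cluster, and the part of cluster make-up in the amacrine ratio was not tested.

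Sox2, which keeps progenitors in an undifferentiated state, gave 85 UMIs or 7.38 CPM in Cre- against 177 UMIs or 10.7 CPM in Tet tcKO, with a log2 ratio of 0.53 (0.15 to 0.92), or 0.12 with nuclei thinned to 500 UMIs. In photoreceptors the log2 ratio was 1.03 (0.52 to 1.56), from 6.47 and 13.2 CPM, and was 0.99 without clusters 32 and 40 and 0.85 without cluster 11. Within amacrine nuclei, Sox2 was concentrated in cluster 13, at 43.0 CPM in Cre- (13.97 to 100.4, 5 UMIs) and 50.4 CPM in Tet tcKO (26.8 to 86.1, 13 UMIs), against 0 to 5.76 CPM in the other amacrine clusters of both libraries. Sox2 is known to be kept in starburst amacrine cells of the mature retina. Over all amacrine nuclei its log2 ratio was -0.13 (-1.47 to 1.46).

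Nr2e1, the orphan nuclear receptor Tlx of neural progenitors, gave 94 UMIs or 8.17 CPM in Cre- against 134 UMIs or 8.08 CPM in Tet tcKO, with a log2 ratio of -0.02 (-0.41 to 0.38). It was highest in Müller-annotated nuclei, at 58.5 CPM in Cre- against 87.1 CPM in Tet tcKO, and was itself among the genes that lead cluster 30 of that class. Neurog2, the proneural factor that Notch signalling holds back, was near the limit of measurement, with 17 UMIs in Cre- against 25 in Tet tcKO, or 1.48 and 1.51 CPM. Its log2 ratio was 0.03 (-0.92 to 1.01). No UMI of Neurog2 lay in the 144 Müller-annotated nuclei of Cre- or the 102 of Tet tcKO, which allows a level of up to 13.5 and 20.1 CPM (3 counts).

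**Figure D2:**
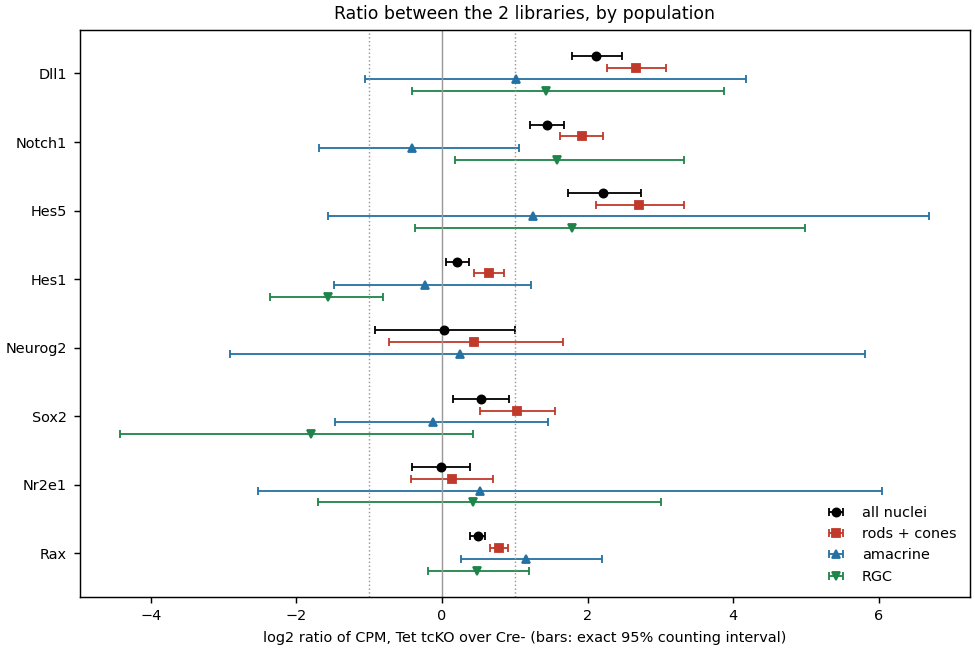
Log2 ratio of CPM, Tet tcKO over Cre- (horizontal axis), for each gene over all nuclei (black), photoreceptors (red), amacrine (blue) and RGC nuclei (green), with exact 95% counting intervals; dotted lines mark 2-fold and a missing symbol means too few UMIs for a ratio. Dll1, Notch1 and Hes5 lie beyond 2-fold over all nuclei and in photoreceptors, and Hes1 lies on opposite sides of 0 in photoreceptors and RGC nuclei.

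Of the 8 genes, 6 reached 10 CPM in at least 1 library over all nuclei, and 3 of them, Dll1, Notch1 and Hes5, were at least 2-fold higher in Tet tcKO. Of all 11158 genes at that level, 3.18% were at least 2-fold higher and 2.48% at least 2-fold lower, and no member was at least 2-fold lower. Dll1, Hes5 and Sox2 reached 10 CPM in Tet tcKO only, here and in photoreceptors, so these counts are a description. Over all 8 members, with no minimum, the median log2 ratio was 0.51, where genes at 10 CPM had 0.15. In photoreceptors 4 members were at least 2-fold higher, Sox2 being the fourth, where 6.67% of 11377 genes were at least 2-fold higher and 2.58% at least 2-fold lower. The median over all 8 members was 0.91 there, where genes at 10 CPM had 0.23. Scaling by TMM shifted every photoreceptor ratio by -0.19 and by median of ratios by -0.17, after which Sox2 was under 2-fold and the other 3 genes were not. With TMM, 443 genes were at least 2-fold higher and 456 lower in photoreceptors, in place of 759 and 293. Over all nuclei the shifts were -0.10 and -0.11, with 276 genes higher and 356 lower by TMM in place of 355 and 277.

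The photoreceptor difference was not carried by a single cluster. Dll1 ranged from 0 to 14.8 CPM over the 16 photoreceptor clusters of Cre- with at least 20 nuclei and from 27.3 to 67.3 CPM over the 8 of Tet tcKO. Notch1 ranged from 0 to 26.3 CPM and from 29.5 to 75.3 CPM, and Hes5 from 0 to 13.2 CPM and from 17.1 to 28.7 CPM. For these 3 genes every Tet tcKO cluster stood above every Cre- cluster, as did 2.43% of the 11377 genes, whereas 0.773% stood below. These are levels without counting intervals, and at the edges the intervals overlapped. Hes5 measured 17.1 CPM (4.65 to 43.7, 4 UMIs) in Tet tcKO cluster 54 and 13.2 CPM (1.59 to 47.6, 2 UMIs) in Cre- cluster 25. Notch1 measured 29.5 CPM (15.7 to 50.5) in Tet tcKO cluster 52 and 26.3 CPM (7.17 to 67.4) in Cre- cluster 25. Dll1 measured 27.3 CPM (14.1 to 47.6) in Tet tcKO cluster 52 and 14.8 CPM (7.38 to 26.4) in Cre- cluster 26. Rax, at 79.0 to 144 CPM and 136 to 243 CPM, and Hes1, at 0 to 64.2 CPM and 47.6 to 81.1 CPM, overlapped. Clusters of 1 library share their preparation and are not replicates, and none of these clusters held at least 20 nuclei of both libraries.

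**Figure D3:**
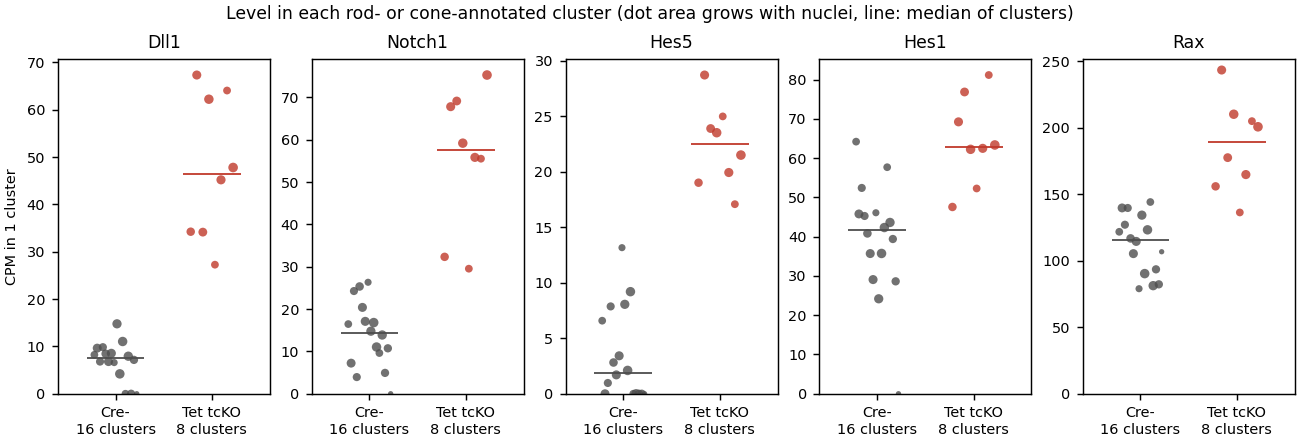
CPM (vertical axis, starting at 0, scaled per gene) in each rod- or cone-annotated cluster with at least 20 nuclei, 16 of Cre- (grey) and 8 of Tet tcKO (red), for Dll1, Notch1, Hes5, Hes1 and Rax; a larger dot is a cluster of more nuclei and the line is the median of clusters. The cluster levels of the 2 libraries, drawn without counting intervals, do not overlap for Dll1, Notch1 and Hes5 and overlap for Hes1 and Rax.

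Depth differed between the libraries, with a median of 1046 UMIs per photoreceptor nucleus in Cre- and 1714 in Tet tcKO, so the levels were also set side by side at like depth. In photoreceptors from 1000 to under 2000 UMIs, Dll1 measured 11.5 CPM in Cre- against 44.4 CPM in Tet tcKO, and Notch1 14.2 and 59.96 CPM. In nuclei from 2000 UMIs, Dll1 measured 5.45 and 55.7 CPM, and Notch1 19.5 and 62.1 CPM. Hes5 measured 5.06 and 20.9 CPM in the lower band and 3.90 and 26.04 CPM in the higher one. Below 1000 UMIs the Tet tcKO library had 103 photoreceptor nuclei with 2 Notch1 and 6 Dll1 UMIs. The log2 ratio of Notch1 there, 0.60 (-2.51 to 2.58), rests on those 2 UMIs.

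Shares of nuclei with a UMI were low for all members but Rax. With each nucleus thinned to 500 UMIs, 0.347% of Cre- photoreceptors (0.21 to 0.54) and 2.60% of Tet tcKO photoreceptors (2.08 to 3.21) had a Dll1 UMI, against 1.10% and 10.8% unthinned. For Notch1 the thinned shares were 0.548% and 3.13%, for Hes5 0.256% and 0.959%, and for Rax 5.58% and 10.1%. Free RNA can place UMIs in nuclei that do not express a gene. In amacrine nuclei, a class of 1065 median UMIs in Cre- against 1736 in Tet tcKO, the thinned share with Dll1 was 0.248% and 0.288%, and with Notch1 0.744% and 0.479%. Hes5 was found in 0 of 403 Cre- amacrine nuclei, which allows a share of up to 0.744%, and in 0.288% of Tet tcKO ones. In Cre- the photoreceptor shares of these 3 genes lay within counting error of the amacrine shares, and no expression was read from them. In Tet tcKO the photoreceptor intervals of Dll1 and Notch1 lay above the amacrine ones, at 2.08 to 3.21 against 0.0594 to 0.838 for Dll1, and that of Hes5 overlapped.

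Most UMIs of the 8 genes lay outside Müller-annotated nuclei even though 6 of the 8 genes had their highest level there in each library. For some of the 6 that level was within counting error of the next class. Those nuclei were 1.96% of Cre- nuclei with 1.93% of all UMIs, and held 6.71% of the members' 2117 UMIs (5.68 to 7.86). In Tet tcKO they were 1.51% of nuclei with 0.899% of all UMIs, and held 2.99% of 4945 UMIs (2.54 to 3.51). Photoreceptors held 72.1% of the members' UMIs in Cre- against 63.8% in Tet tcKO, where they had 65.8% and 44.7% of all UMIs. For Dll1 the Müller share was 8.33% (3.42 to 16.4) in Cre- against 0.759% (0.21 to 1.93) in Tet tcKO. For Nr2e1 it was 13.8% and 9.70%.

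The Müller-annotated nuclei carried Müller markers beyond other classes. The 15 markers summed gave 5054 CPM in Cre-, against 575 to 1580 CPM in other classes, and 7351 CPM in Tet tcKO, against 431 to 1917 CPM. All 15 markers also gave UMIs in photoreceptors. The level of a marker in photoreceptors divided by its level in Müller-annotated nuclei had a median of 0.354 in Cre- (range 0.147 to 0.997) and 0.347 in Tet tcKO (range 0.112 to 2.36). The same quotient in Cre- was 0.19 for Hes1, 0.156 for Notch1, 0.26 for Dll1 and 0.411 for Hes5, each within the range of the markers. Nr2e1, at 0.12, lay below that range in Cre-. In Tet tcKO it was 0.178 for Hes1, 0.267 for Notch1, 0.598 for Hes5 and 1.93 for Dll1. Dll1 was above 1 in Tet tcKO, as were Apoe, Clu, Vim and Kcnj10 among the 15 markers, the last of these from 1 Müller UMI, and no member left the range of the markers other than Nr2e1 at 0.0883. The Dll1 quotients rest on 7 Müller UMIs in Cre- and 4 in Tet tcKO, for levels of 31.5 CPM (12.7 to 64.9) and 26.8 CPM (7.30 to 68.6), and all 7 lay in cluster 14, which had no Tet tcKO nucleus. The part of Müller RNA in the photoreceptor levels was not tested.

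**Figure D4:**
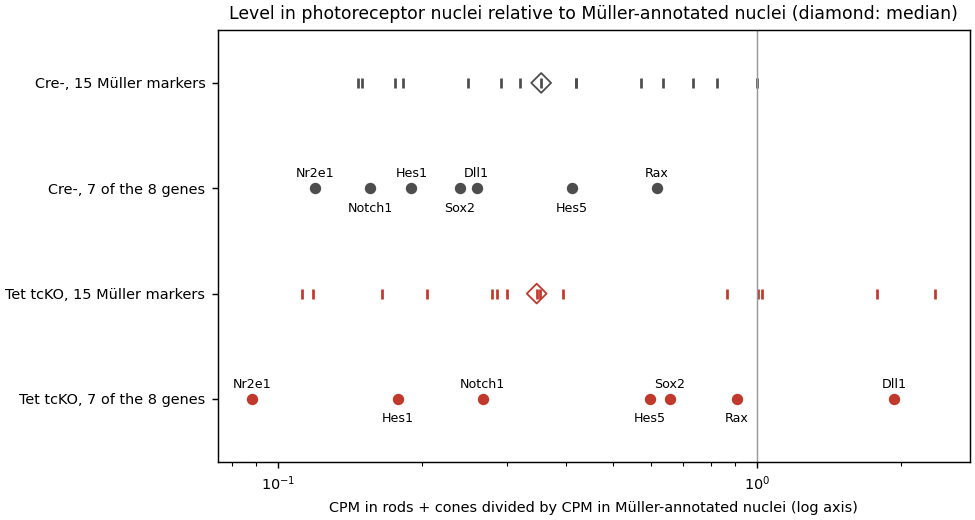
CPM in photoreceptors divided by CPM in Müller-annotated nuclei (horizontal log axis) for the 15 Müller markers (ticks, diamond for their median) and for 7 of the 8 genes (dots), in Cre- (grey) and Tet tcKO (red); Neurog2 had no Müller UMI. Dll1 lies at 0.26 in Cre- and 1.93 in Tet tcKO, from 7 and 4 Müller UMIs, and the marker medians at 0.354 and 0.347.

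The annotated Müller nuclei fell in cluster 14, with 99 Cre- nuclei and none of Tet tcKO, cluster 30, with 43 and 46, and cluster 37, with 2 and 56. In cluster 30, present in both libraries, Notch1 had 8 UMIs in Cre- against 17 in Tet tcKO, or 184 and 252 CPM, with a log2 ratio of 0.45 (-0.84 to 1.87). Hes1 had 16 and 27 UMIs, with a log2 ratio of 0.12 (-0.83 to 1.11), and Rax 12 and 18 UMIs, with a log2 ratio of -0.05 (-1.19 to 1.13). A difference between libraries was not detectable in that cluster at this depth. Notch1 measured 85.9 CPM in cluster 14 (48.1 to 142) and 208 CPM in cluster 37 (121 to 333), which belong to different libraries. The endothelial receptor genes Flt1 and Kdr were also measured in these clusters, Flt1 at 601 CPM in cluster 14, 1382 and 548 CPM in cluster 30 of Cre- and Tet tcKO, and 330 CPM in cluster 37. Of the 7 endothelial markers 3 or 4 had a UMI in each cluster, and Cldn5 and Cdh5 had at most 1 UMI in any of them. The 6 astrocyte markers summed to 80.2 to 385 CPM, with Gfap and Pax2 at 2 UMIs or fewer, and their part in the members' levels was not tested.

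Bipolar-annotated nuclei of the 2 libraries lay in different clusters and were not compared as a class. Notch1 ranged from 14.6 to 17.2 CPM over the 3 clusters of Cre- and from 13.2 to 66.5 CPM over the 6 of Tet tcKO, Dll1 from 2.44 to 9.81 CPM and from 13.2 to 48.6 CPM, and Hes5 from 0 to 9.81 CPM and from 2.56 to 28.3 CPM. Hes1 reached 140 CPM in cluster 43 of Tet tcKO, where its other bipolar clusters went as low as 7.68 CPM. Notch1 and Nr2e1 were also highest in cluster 43 among those clusters, at 66.5 and 23.4 CPM. The leading genes of cluster 43 held no bipolar marker, as in bipolar clusters 22, 35, 39 and 41 and in cluster 3 of Cre-. Dapp1 and Tcf7l1, among them, also led Müller-annotated cluster 30, and Tcf7l1 and Tmem132b led cluster 37. These genes were named after their values were seen, and the identity of cluster 43 was not tested. In Tet tcKO the level in bipolar nuclei divided by that in photoreceptors was 0.469 for Dll1, 0.713 for Notch1 and 0.571 for Hes5, beside a median of 0.588 (range 0.263 to 1.502) for 22 rod and cone markers. For amacrine nuclei the quotient was 0.14 for Dll1, 0.154 for Notch1 and 0.178 for Hes5, beside a marker median of 0.209 (range 0.148 to 1.15). Each of these quotients lay in the range of the markers except that of Dll1 in amacrine nuclei, just below it, and the part of photoreceptor RNA in those levels was not tested.

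Nuclei that carried several of the 8 genes were counted next. In Cre- 230 of 7357 nuclei, or 3.13%, had a UMI of at least 2 of the 8 genes and 25, or 0.34%, of at least 3. In Tet tcKO 941 of 6766 nuclei, or 13.9% (13.1 to 14.8), had at least 2 and 238, or 3.52% (3.09 to 3.98), at least 3. The nuclei with at least 3 were deep ones, with a median of 4091 UMIs in Cre- against 4444.5 in Tet tcKO, where all nuclei had 1107 and 1836.5. With every nucleus thinned to 500 UMIs, 0.34% of Cre- and 1.02% of Tet tcKO nuclei (0.79 to 1.29) had at least 2. Thinned, at least 3 were found in 0 of 7357 Cre- nuclei, which allows a share of up to 0.0408%, and in 1 of 6766 Tet tcKO nuclei. No nucleus had more than 5 of the 8 genes in Tet tcKO or more than 4 in Cre-.

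Dll1 and Notch1 were no more often found together in Tet tcKO photoreceptors than counting error allows. With nuclei thinned to 1000 UMIs, Dll1 was found in 13 of 207 nuclei with Notch1, or 6.28% (3.39 to 10.5), and in 4.62% (3.89 to 5.45) of 2921 without. Hes5 was found in 1.45% of nuclei with Notch1 and in 2.23% without, and Hes1 in 6.76% and 6.54%. Dll1 was found in 4.75% of nuclei with Rax and 4.73% without. The intervals overlapped in each of these pairs.

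The summed level of dividing-cell markers differed little between the libraries over all nuclei. The 18 proliferation genes summed gave 1044 UMIs or 90.7 CPM (85.3 to 96.4) in Cre- against 1631 UMIs or 98.3 CPM (93.6 to 103) in Tet tcKO. Only 4 of the 18 reached 10 CPM. Hells, with 312 and 390 UMIs, Ccna2, with 234 and 296, and Tyms, with 178 and 344, weighed most in the sum. Mki67, which encodes a protein of cycling cells, had 1 UMI in Cre- and 13 in Tet tcKO, with a log2 ratio of 3.17 (0.44 to 8.58). Top2a, a topoisomerase of dividing cells, had 30 and 41, with a log2 ratio of -0.08 (-0.79 to 0.65). Tyms, Mki67 and Top2a were named after their values were seen. In photoreceptors the summed level was 92.3 CPM in Cre- against 117 CPM in Tet tcKO, with intervals that did not overlap, and in Müller-annotated nuclei 131 CPM (87.4 to 187) and 60.3 CPM (27.6 to 114). No proliferation gene that reached 10 CPM was 2-fold apart over all nuclei or in photoreceptors. Of all genes at that level 3.18% were higher and 2.48% lower over all nuclei, and 6.67% and 2.58% in photoreceptors. Of the nuclei with at least 3 of the 8 genes, themselves more numerous in Tet tcKO, 1 in Cre- and 21 in Tet tcKO had at least 2 proliferation genes. Their medians were 5798 and 5768 UMIs, where all nuclei had 1107 and 1836.5. The share of other nuclei of that depth with at least 2 proliferation genes was not set beside these counts.

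The other genes of the pathway lists were read beside the 8. Of 83 other listed genes, 54 reached 10 CPM over all nuclei, of which 5 were at least 2-fold higher in Tet tcKO and 2 at least 2-fold lower, beside 3.18% and 2.48% of all genes. In photoreceptors 58 reached 10 CPM, of which 8 were at least 2-fold higher and none was lower, beside 6.67% and 2.58% of all 11377 genes. With TMM or median of ratios 7 were higher and 1 lower. Atoh7, Hey1, Hey2, Mfng and Sox11, 5 of the 8, reached 10 CPM in Tet tcKO only, so the count is a description. The largest ratio among those 58 was that of Atoh7, the proneural factor that makes progenitors competent for the ganglion cell fate. It had 10 UMIs or 1.32 CPM in Cre- photoreceptors and 188 UMIs or 25.4 CPM in Tet tcKO photoreceptors, with a log2 ratio of 4.26 (3.35 to 5.35). In Müller-annotated nuclei it had 1 UMI in Cre- and none in Tet tcKO.

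Among the ligands, Jag1, which encodes Jagged1, ran against Dll1, with 712 UMIs or 61.9 CPM in Cre- against 469 UMIs or 28.3 CPM in Tet tcKO, with a log2 ratio of -1.13, and -0.79 (-0.98 to -0.60) in photoreceptors. Jag2 stood at 40.4 and 39.6 CPM. Of the receptors, Notch2 followed Notch1 with a smaller ratio, at 15.5 and 23.7 CPM over all nuclei and a log2 ratio of 0.89 (0.55 to 1.24) in photoreceptors. Of the targets, Hey1 gave 3.43 and 10.8 CPM in photoreceptors, with a log2 ratio of 1.65 (1.00 to 2.35), and Hey2 5.81 and 13.9 CPM, with a log2 ratio of 1.26 (0.74 to 1.80).

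Of 16 genes that process or modify Notch, all 16 reached 10 CPM in photoreceptors. Mfng and Rfng, glycosyltransferases of the Fringe family, were at least 2-fold higher there and none was lower, beside 6.67% and 2.58% of all genes. They measured 5.41 and 13.0 CPM and 50.2 and 100.4 CPM. Mfng reached 10 CPM in Tet tcKO only, so the count is a description. The log2 ratio of Rfng was 1.00, and with the shifts of TMM or median of ratios it was under 2-fold. Adam10, a protease that cleaves Notch after ligand binding, went the other way, at 131 CPM in Cre- against 64.8 CPM in Tet tcKO over all nuclei, with a log2 ratio of -1.02. Numb, an inhibitor of Notch, and Itch, a ubiquitin ligase that acts on it, were the 2 of that list with most UMIs, with log2 ratios of 0.33 and 0.27. None of the 7 genes of the nuclear complex was 2-fold apart over all nuclei, where 3.18% of all genes were higher and 2.48% lower. Maml2 and Maml3, coactivators of RBPJ and those with most UMIs, had log2 ratios of 0.94 and 0.27 there.

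Of 20 progenitor transcription factors, 18 reached 10 CPM in photoreceptors, and 4 were at least 2-fold higher and none lower, beside 6.67% and 2.58% of all genes. Sox2, 1 of the 4, was under 2-fold with TMM or median of ratios. Besides Sox2 these were Six6 at 26.3 and 93.0 CPM, Id3 at 10.2 and 35.8 CPM and Sox11 at 6.07 and 15.1 CPM, with log2 ratios of 1.82, 1.82 and 1.32. Six6 is an eye field factor, Id3 an inhibitor of basic helix-loop-helix proteins and Sox11 a factor of young neurons. Pax6 and Meis1, the 2 with most UMIs, had photoreceptor log2 ratios of 0.66 and 0.52. Neurod1 and Btg2, the 2 proneural genes with most UMIs, had 0.62 and 0.55. The cell cycle regulators Cdk4 and Cdkn1b had 0.88 and 0.57, and the proliferation genes Ccna2 and Hells 0.21 and -0.33.

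**Figure D5:**
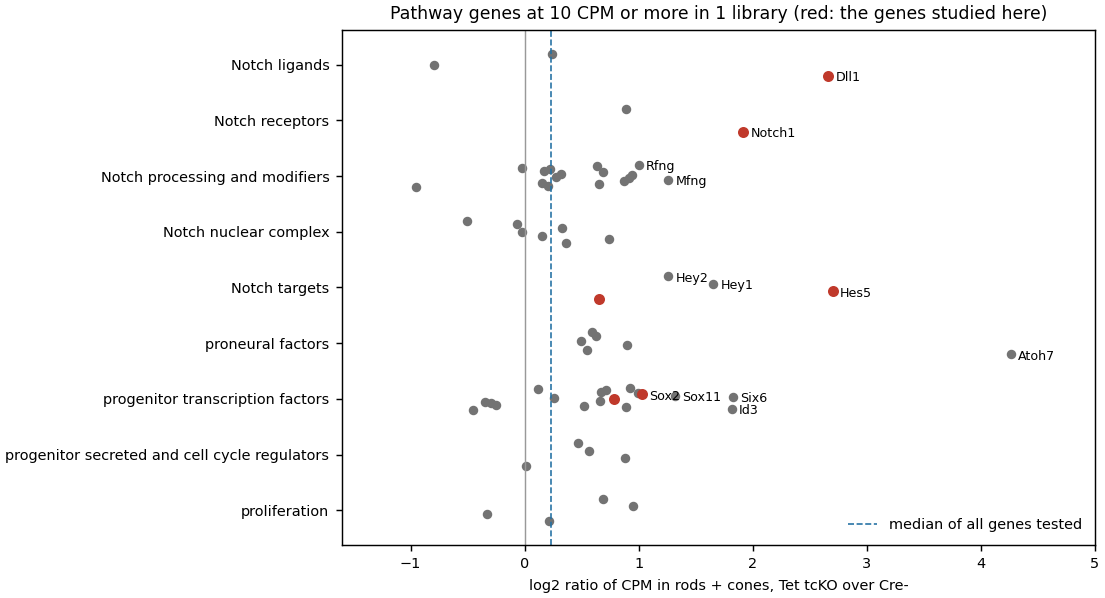
Log2 ratio of CPM in photoreceptors, Tet tcKO over Cre- (horizontal axis), for each listed gene at 10 CPM or more in 1 library, grouped by list (vertical axis); red dots are members of the 8 genes, grey dots other genes, names are given at 2-fold and beyond, and the dashed line is the median of all genes, 0.23. Atoh7, Hes5 and Dll1 lie farthest to the right.

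Across 55 populations of 1 cluster in 1 library, the genes whose log2(CPM + 1) ran most like a member's are given as a description, since all points share 2 libraries and their depth. Dll1 was most like the immediate early gene Egr1 (Pearson's r = 0.857), then Cabp5 (0.828) and Trim68 (0.807). Notch1 was most like Timp3 (0.844), Col9a1 (0.825) and Cp (0.825), and the last 2 are on the Müller marker list. Hes1 was most like Espn (0.869), Kdr (0.836) and Folh1 (0.828), and Rax most like Slc1a2 (0.931), a glutamate transporter, then Plk5 (0.863) and Gm3764 (0.832). Hes5 was most like Dll1 itself (0.742), then Col4a6 (0.705) and Adamts6 (0.699). Sox2 was most like Slitrk2 (0.782), Tns3 (0.769) and Pdgfc (0.746), and Nr2e1 most like Acot11 (0.797), Rassf4 (0.777) and Zfp36l1 (0.776).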

How the data were processed

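Nuclei of whole retina were profiled with the PIPseq T20 3' kit v4.0. Per the labels, reads were processed with pipseeker v3.3.0 and aligned to GRCm39, and per the methods ambient RNA was removed with CellBender before import into Monocle3. In the matrices the authors deposited, values are whole counts of UMIs for each gene in each nucleus, and the totals of the deposited cell tables equalled them in 7357 of 7357 and 6766 of 6766 nuclei. The deposited mitochondrial percent and size factor ratio of each nucleus are the authors' own and were not used for a level. The deposited gene table gives a signal per genotype that equalled the mean of counts per 10000 for 32227 genes, and a count of nuclei per gene. Cluster numbers and class names are the authors' annotation, checked against marker lists of 12 cell types.

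Counts were summed per population, divided by the sum over all genes and given as CPM. With 1 library per genotype no test between genotypes was possible, and nothing was fitted with nuclei as replicates, unlike the study's model. Intervals at 95% are exact (Poisson, conditional for a ratio, Clopper-Pearson for a share). A count of 0 allows 3 counts. No ratio was formed where both counts were 3 or fewer. Genes were called 2-fold apart among those at 10 CPM or more in 1 library. Doublets were scored by simulation, and the highest 5% were removed only in an alternative. Scaling factors came from edgeR 4.0.16 (TMM) and DESeq2 1.42.0 (median of ratios) in R 4.3.3, without a test. Levels used Python 3.11.15, numpy 2.4.6, scipy 1.17.1 and pandas 2.3.3. On simulated counts of genes at 10 CPM or more, with counting error only, the steps recovered the ratios they were made with. That setting held no spread between animals or classes and no lower counts, so it checks the calculation alone. Gene positions and start sites came from GENCODE vM39.

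The 8 genes and the pathway lists were chosen with earlier results of these data known. Named besides the 8 are listed genes at least 2-fold apart at 10 CPM, the 2 highest of each list, and for each member with at least 100 UMIs the 3 genes most like it. Alternatives were other scalings, counting a gene once per nucleus, leaving out the nucleus with most UMIs of the gene, nuclei of at least 1000 UMIs, thinning, removing doublets and Cre- class shares. The mean over nuclei, the depth bands, leaving out clusters 32 and 40 and leaving out cluster 11 were added after seeing the data.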

Additional observations from a re-analysis of the deposited data

Results flagged for a closer look

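Hes1 had log2 ratios on opposite sides of 0 in 2 cell classes, 0.65 in photoreceptors and -1.57 in RGC nuclei, each with a counting interval that did not include 0. The difference between the classes was not tested, since each genotype has 1 library. The RGC ratio rests on 41 and 24 UMIs. Of the Cre- UMIs 27 lay in cluster 8, with 394 Cre- and 29 Tet tcKO nuclei, and 13 in cluster 2, with 111 and 185. Of the Tet tcKO UMIs 10 lay in cluster 2, 8 in cluster 15, 3 in cluster 8 and 3 in cluster 31. Within cluster 2 the Tet tcKO level was the lower one, at 12.4 CPM against 26.7 CPM, with overlapping intervals. Within cluster 8 the Tet tcKO level was the higher one, at 57.8 CPM from 3 UMIs against 41.9 CPM, with overlapping intervals.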

How the results depend on the processing

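Of 369 values under an alternative, 306 moved by less than the counting interval of the value reported, 63 moved by more and none whose interval excluded 0 changed sign. Of the members' log2 ratios 260 of 282 kept their sign, and the others were of Neurog2, of Nr2e1 or in amacrine nuclei and Müller cluster 30. For Dll1, Notch1 and Hes5 the log2 ratio over all nuclei and in photoreceptors stayed above 1 under each alternative, from 1.95 to 3.35, from 1.67 to 2.51 and from 1.91 to 2.74 in photoreceptors. Nuclei under 1000 UMIs, with 2 Notch1 UMIs in Tet tcKO photoreceptors and a log2 ratio of 0.60, were not among the alternatives. With nuclei thinned to 500 UMIs, the ratio over all nuclei was 0.018 for Hes1, 0.12 for Sox2 and 2.04 for Notch1, and in photoreceptors 1.91 for Hes5 and 2.51 for Notch1. With the class shares of Cre- given to both libraries it was 0.48 for Hes1, 1.72 for Notch1 and 0.75 for Rax. Scaling by median of ratios gave 0.39 for Rax over all nuclei and 0.61 in photoreceptors, TMM 0.59 and counting a gene once per nucleus 0.60. In photoreceptors of 1000 to under 2000 UMIs it was 2.05 for Hes5, 1.95 for Dll1 and 0.66 for Rax, and from 2000 UMIs 3.35 for Dll1. Nuclei with at least 3 Müller markers numbered 1816 of 7357 in Cre- and 2960 of 6766 in Tet tcKO, of which 1316 and 1945 were photoreceptors. They held 46.7% and 69.99% of the members' UMIs. Their share of all UMIs was not set beside this, so these values do not show that members are concentrated there. The share of nuclei with at least 3 members was 0% and 0.0148% thinned, and 2.86% in Tet tcKO without the highest doublet scores. In place of 632 genes 2-fold apart, 1868 were at 1 CPM or more and 3324 with no filter. In place of 5 other listed genes at least 2-fold higher, 8 were at 1 CPM or more and 3 with TMM. Without clusters 32 and 40, and without cluster 11, 3 members in place of 4 were at least 2-fold higher in photoreceptors. The causes were not tested. No library could be left out, since each genotype has 1. No paired analysis was possible because the labels carry no replicate numbers and no test was made. Depth limits Neurog2, with 17 and 25 UMIs in all, and in Müller-annotated nuclei Hes5, with 2 and 6, Sox2, with 6 and 3, and Dll1, with 7 and 4.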

Other observations

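The deposited gene table counts more nuclei with each member than the matrices hold, 3208 against 2754 for Rax, 1419 against 1190 for Hes1, 975 against 831 for Notch1, 642 against 567 for Dll1 and 336 against 302 for Hes5. Its mean levels equalled those of the matrices.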
